A study of Mus musculus with 4 samples.

Results

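The connexins are the proteins of gap junctions, and 7 of their genes were examined in mouse colon: Gja1, Gja4, Gja5, Gjb1, Gjb2, Gjb5 and Gjc1. They were taken by symbol from a table of 46095 gene symbols, and all 7 were found. The list was selected with earlier results of the same comparison known, so the fold changes and p-values of these 7 genes are given as a description and support nothing by themselves. A further 9 connexin genes and 3 pannexin genes, which the list did not take, are reported with the tests that the design allows. The material was total RNA from colon of C57BL/6 mice taken on postnatal day 21. There were 4 libraries: WT 1 and WT 2 came from the wild type, and Esr2-KO 1 and Esr2-KO 2, called the knockouts below, carried Esr2-/-, a loss of the estrogen receptor β gene. The labels name no treatment. They do not give how the Esr2 allele was made, the stretch of colon taken or whether libraries of 1 genotype came from separate animals. Spread within a genotype, on which every p-value rests, was larger than counting alone gives. Its chi-square per degree of freedom was 39.7 in WT and 478 in Esr2-KO, where repeat counts of 1 RNA give about 1. Whether this spread lies between animals or between pieces of tissue from the same animal was not tested.

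Connexins span the membrane several times and assemble into rings that dock with rings of a neighbouring cell, which gives a channel for ions and small metabolites. Different cell types use different connexins: Gjb genes are mostly epithelial, Gja4 and Gja5 are best known from arterial endothelium, and Gja1 and Gjc1 couple muscle cells and the cells around them. In the gut, coupling of this kind is known between epithelial cells, along vessel walls and in the muscle layers with their pacemaker cells.

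Library totals ran from 30826790 to 33709643 counts, and a floor of 3 counts corresponded to 0.0826 to 0.114 CPM, the usual scaling of a count by its normalised library total. The Esr2 gene itself held 21, 13, 6 and 16 counts (WT 1, WT 2, Esr2-KO 1, Esr2-KO 2). Its log2 fold change of knockouts over WT was -0.32 ± 0.77 (SE, n = 2 per group; adjusted p = 0.854), so at this depth the gene gave no check of the genotype labels. Markers of colon epithelium, all 10 detected, summed to 13800, 13200, 15200 and 15000 CPM in the same library order. The library Esr2-KO 2 stood apart: genes of the exocrine pancreas took 20.2% of its counts, where WT 1 had 0.259%, WT 2 had 0.292% and Esr2-KO 1 had 0.406%. The elastase gene Cela2a had 404, 96, 2846 and 1151924 counts in the same order, and the pancreatic factor Ptf1a 0, 0, 0 and 306. Klk1, also on that list, had 70090, 78862, 69885 and 130646 counts, most of the list's counts in all but Esr2-KO 2. The share of Esr2-KO 1 therefore lay near those of WT, although Cela2a was well above both WT libraries in it. Genes that mark position along the gut also differed between the groups: the posterior homeobox gene Hoxb13 was at 72.8 and 153 CPM in the WT libraries, against 616 and 676 CPM in the knockouts, and Hoxb8, expressed further forward, at 3.33 and 12.1 against 0.175 and 0.152 CPM. Of 10 tested position genes, 2 rose (Hoxb13 and Hoxd12, log2 fold changes of 2.51 ± 0.34 and 5.04 ± 0.46) and 2 fell (Hoxb7 and Hoxb8, -3.34 ± 0.59 and -5.51 ± 0.77), with a median of 1.42. An unadjusted p under 0.05 was found for 8 of the 10. The likelihood ratio test called 7 of the 10, DESeq2 5 and limma-voom 4, the last without Hoxb7 and Hoxb8. The part that position along the colon, or pancreatic tissue, had in any result below was not tested, and position cannot be told apart from genotype in these libraries.

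Gjb5 and Gja4 both lie on the minus strand of chromosome 4, and their promoters are shown because Gjb5 differed between the genotypes and Gja4 did not detectably. Gjb5 spans 127354809 to 127358181 and Gja4 127311421 to 127314039 (GRCm38, counted from 1). The promoter of Gjb2, an epithelial connexin on chromosome 14 (57098600 to 57104702, minus strand), is added for contrast. Each window holds 250 bases before and 50 after the transcript start given by RefSeq on GRCm38.p6, read on the gene's strand. Capitals mark matches on either strand to the full estrogen response element (GGTCA and TGACC with any 3 bases between them), GGTCA alone (which the full element also holds), TGANTCA (AP-1), GGGCGG (the GC box), CACGTG (the E-box) or TATAAA (the TATA box).
Gjb5, chr4:127358115-127358414, minus strand: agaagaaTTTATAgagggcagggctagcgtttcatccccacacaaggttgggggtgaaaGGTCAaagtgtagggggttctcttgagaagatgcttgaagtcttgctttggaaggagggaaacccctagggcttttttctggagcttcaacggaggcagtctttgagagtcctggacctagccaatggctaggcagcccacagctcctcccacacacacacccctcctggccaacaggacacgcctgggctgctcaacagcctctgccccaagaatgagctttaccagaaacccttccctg
Gja4, chr4:127313990-127314289, minus strand: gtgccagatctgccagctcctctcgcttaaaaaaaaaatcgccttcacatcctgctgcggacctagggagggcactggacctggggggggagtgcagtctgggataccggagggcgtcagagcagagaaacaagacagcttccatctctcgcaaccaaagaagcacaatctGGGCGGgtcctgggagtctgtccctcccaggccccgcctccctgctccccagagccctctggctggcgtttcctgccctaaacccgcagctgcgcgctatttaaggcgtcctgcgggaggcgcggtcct
Gjb2, chr14:57104653-57104952, minus strand: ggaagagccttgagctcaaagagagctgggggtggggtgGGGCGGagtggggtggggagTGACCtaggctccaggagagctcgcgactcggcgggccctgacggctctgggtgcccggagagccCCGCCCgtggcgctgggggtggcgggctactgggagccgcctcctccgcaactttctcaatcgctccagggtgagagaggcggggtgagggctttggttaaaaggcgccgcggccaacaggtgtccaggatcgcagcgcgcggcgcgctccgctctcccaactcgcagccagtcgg

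The Gjb5 window held 1 copy of GGTCA, with its first base at -191 from the start, and 1 TATA box read on the opposite strand at -243. The Gja4 window held 1 GC box at -79 and no GGTCA. The Gjb2 window held GGTCA on the opposite strand, also with its first base at -191, and GC boxes at -211 and -126. GGTCA occurs in 40.5% of 32851 promoter windows of this length, the GC box in 35.7% and the TATA box in 13.6%, so each of these matches is common. The full estrogen response element was in 0.07% of all windows and in none of the 9 windows of the 6 genes that the table covered, and the E-box (7.15% of all windows) was also in none of them. AP-1 (7.81% of all windows) matched once, in the Gja1 window at -19. Gjc1 had no window in the table. These matches are letters in a window and do not show a bound factor.

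Among the epithelial genes, Gjb5 was the connexin with the largest difference of the 7. Gjb5 encodes Cx31.1, a connexin known mainly from stratified epithelia such as epidermis and from the placenta. Gjb5 had 48 and 125 counts in the WT libraries, against 568 and 495 in the knockouts, which is 1.32 and 3.59 CPM against 16.6 and 18.8 CPM. Both Esr2-KO libraries lay far above both WT libraries, and WT 1 lay well below WT 2. The mean level rose from 2.46 ± 1.61 to 17.7 ± 1.53 CPM (SD, n = 2 per group), a ratio of 7.2. The log2 fold change was 2.85 ± 0.44 (SE) and the adjusted p was 0.0305 (quasi-likelihood test of edgeR, 17169 genes). The size depended on the WT libraries, with 3.76 without WT 2 and 2.30 without WT 1. In bulk tissue, more cells that carry a transcript and more transcript per cell cannot be told apart, for Gjb5 and for every gene below.

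**Figure D1:**
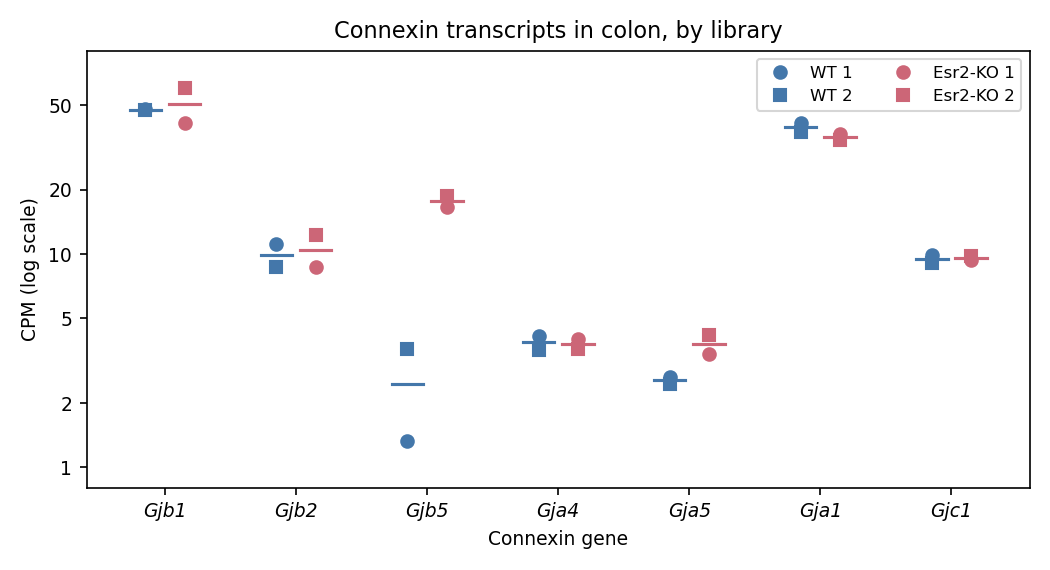
Level of the 7 connexin genes in each library, in CPM on a log axis, with circles for replicate 1, squares for replicate 2 and lines for the group means (n = 2). Gjb5 is the gene whose groups are far apart (1.32 and 3.59 against 16.6 and 18.8 CPM), while Gjb2, Gja4 and Gjc1 overlap closely.

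Gjb1 and Gjb2 did not differ detectably between the genotypes. Gjb1 encodes Cx32, the connexin of hepatocytes, of secretory acini such as those of the pancreas, and of Schwann cells, and lies on chromosome X at 101376378 to 101385629 (plus strand, GRCm38). It was at 48.1 and 47.3 CPM in the WT libraries, against 41.2 and 60.4 CPM in the knockouts (1748, 1645, 1410 and 1591 counts). The WT libraries lay between the Esr2-KO libraries, with Esr2-KO 2 the highest of the 4. The log2 fold change was 0.09 ± 0.19 (adjusted p = 0.826). It was -0.20 without Esr2-KO 2, the library in which exocrine pancreas genes took 20.2% of the counts, and 0.34 without Esr2-KO 1. Gjb2 encodes Cx26, a partner of Cx32 in liver that is also found in skin and inner ear, and was at 11.1 and 8.68 CPM in the WT libraries, against 8.68 and 12.3 CPM in the knockouts (403, 302, 297 and 324 counts). Its groups overlapped, Esr2-KO 2 was again the highest library, and the log2 fold change was 0.08 ± 0.25 (adjusted p = 0.884). It was -0.18 without Esr2-KO 2 and 0.32 without Esr2-KO 1. The part of pancreatic tissue in the Esr2-KO 2 values of these genes was not tested.

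Marker lists of the tissues known for these connexins gave the following values. Of 24 tested exocrine pancreas genes, 1 rose, the secretory trypsin inhibitor Spink1 (1.30 ± 0.16, adjusted p = 0.0204). Spink1 was at 120 and 138 CPM in the WT libraries, against 285 and 349 CPM in the knockouts, so it was not high in Esr2-KO 2 alone. All 24 were positive with a median of 11.27, a size set by Esr2-KO 2. DESeq2 called 22 of them and the likelihood ratio test 23, limma-voom 2, and 23 had an unadjusted p under 0.05. Of 14 squamous epithelium genes 4 were tested, with a median of 0.24. Of these, 1 fell, the cornified envelope gene Sprr1a, from 24.0 and 11.0 CPM in WT to 2.31 and 2.92 CPM in Esr2-KO (-2.75 ± 0.40, adjusted p = 0.0282), a call lost with limma-voom (adjusted p = 0.0569). The summed level of the squamous list was 28.4 and 16.2 CPM in the WT libraries, against 6.67 and 9.67 CPM in the knockouts. Sprr1a carried that difference: without it the other 13 genes summed to 4.35, 5.26, 4.36 and 6.75 CPM, a comparison added after seeing the data. The other 3 tested genes were near level without passing, the basal keratins Krt14 (56, 58, 57 and 59 counts, 0.28 ± 0.38) and Krt15 (19, 18, 18 and 18 counts, 0.21 ± 0.55) and Sbsn (0.30 ± 0.45). Too low to be tested were Krt5, with 3, 8, 0 and 2 counts, and the basal factor Trp63, with 7, 1, 0 and 0, and Krt6a and Sprr3 had none. Liver genes summed to between 3.0 and 9.49 CPM in the 4 libraries and none of 4 tested passed, with 1 at an unadjusted p under 0.05 (median -0.44), with Apoh at -2.69 ± 0.76 and Serpinc1 at 1.15 ± 0.67. Islet genes summed to 0.909, 2.1, 0.789 and 29.9 CPM, and none of 3 tested passed, again with 1 at an unadjusted p under 0.05 (median 1.14), with Pdx1 at 1.14 ± 0.97 and G6pc2 at 4.14 ± 1.11. None of the 10 colon epithelium genes passed in edgeR, though 2 did in DESeq2 (median 0.03), with Krt20 at -0.65 ± 0.23 and the chloride exchanger gene Slc26a3 at 0.80 ± 0.23.

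Of the vascular connexins, Gja5 was higher in both Esr2-KO libraries without passing the test, and Gja4 was level. Gja4 encodes Cx37, known from arterial endothelium and from ovarian follicles, and was at 4.13 and 3.56 CPM in the WT libraries, against 3.98 and 3.57 CPM in the knockouts (150, 124, 136 and 94 counts). The knockouts lay within the range of the WT libraries, with a log2 fold change of -0.03 ± 0.27 (adjusted p = 0.966). Gja5 encodes Cx40, which couples arterial endothelial cells and the conduction system of the heart, from chromosome 3 at 96904693 to 97077416 (plus strand). It was at 2.64 and 2.47 CPM in the WT libraries, against 3.39 and 4.17 CPM in the knockouts (96, 86, 116 and 110 counts). The groups did not overlap, the WT libraries lay close together, and the log2 fold change was 0.56 ± 0.30 (adjusted p = 0.342). Annotated exons of Gja5 overlap those of Gpr89 on the opposite strand, and 13.2% of its 50-base stretches occur in transcripts of Zfp697. The sources used here do not state whether counting used strand, so its counts are less certain than those of the other 6. Of 9 tested endothelial genes none passed in edgeR (2 had an unadjusted p under 0.05, and 1 passed in DESeq2), all 9 were positive and the median was 0.14, with the receptor kinase Tie1 at 0.54 ± 0.14 and Egfl7 at 0.36 ± 0.15. Of 8 arterial genes none passed in edgeR or DESeq2, and 1 had an unadjusted p under 0.05 (median 0.22), with the Notch ligands Dll4 and Jag1 at 0.46 ± 0.17 and -0.37 ± 0.16. The endothelial list summed to 189 and 202 CPM in the WT libraries, against 222 and 223 CPM in the knockouts, and the part of that in the Gja5 values was not tested.

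Gja1 and Gjc1, the connexins of muscle and its neighbouring cells, were nearly level across the 4 libraries. Gja1 encodes Cx43, the most widely expressed connexin, found in smooth muscle, fibroblasts and heart muscle, from chromosome 10 at 56377330 to 56402513 (plus strand). It was at 41.4 and 37.4 CPM in the WT libraries, against 36.8 and 34.3 CPM in the knockouts (1505, 1300, 1258 and 904 counts). Both Esr2-KO libraries lay just below both WT libraries, with a log2 fold change of -0.15 ± 0.13 (adjusted p = 0.552). Gjc1 encodes Cx45, which is known from smooth muscle, interstitial cells of Cajal (the pacemaker cells of gut muscle) and the heart, from chromosome 11 at 102799579 to 102819700 (minus strand). It was at 9.86 and 9.11 CPM in the WT libraries, against 9.38 and 9.82 CPM in the knockouts (358, 317, 321 and 259 counts), the narrowest spread of the 7 relative to its level, with a log2 fold change of 0.02 ± 0.19 (adjusted p = 0.97).

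The markers of those cells did not all follow that pattern. Of 9 smooth muscle genes none passed in edgeR and 1 did in DESeq2 (median -0.0021), with the contractile genes Cnn1 and Synpo2 at -0.23 ± 0.22 and -0.62 ± 0.19. Of 4 genes of interstitial cells of Cajal 2 rose, the chloride channel gene Ano1 (98.3 and 118 against 229 and 229 CPM, 1.08 ± 0.14) and the matrix gene Thbs4 (67.4 and 75.5 against 210 and 232 CPM, 1.63 ± 0.13), with a list median of 0.17. The other members were negative and did not pass in edgeR: Kit, the receptor that defines these cells, was at 77.3 and 66.5 against 48.3 and 31.3 CPM (-0.85 ± 0.21, adjusted p = 0.0885) and Etv1 at -0.73 ± 0.21. Kit passed in DESeq2 (adjusted p = 0.00261) and in the likelihood ratio test (0.0174), and Etv1 in neither. Of 6 mural cell genes 1 fell, the pericyte gene Rgs5 (443 and 400 against 171 and 141 CPM, -1.44 ± 0.16), with a median of -0.08. Of 8 fibroblast genes 1 rose, Pi16 (1.94 ± 0.34), a call lost with limma-voom (adjusted p = 0.0646), with a median of 0.09. The median over all 17169 genes was -0.0031.

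Over the 7 genes, 1 passed an adjusted p of 0.05 and was higher in Esr2-KO, and 6 did not pass. Of all genes tested 2.69% passed, 1.30% higher and 1.39% lower, but the list was selected on this contrast and nothing is read from its count. The groups did not overlap for 3 of the 7, Gjb5, Gja5 and Gja1, against 54.7% of all genes tested. The median log2 fold change of the 7 was 0.08, and 5 of them lay within 0.2 of zero. All 7 passed the filter on low counts, and each had at least 48 counts in every library. The SE was still wider for Gja4 (0.27) and Gja5 (0.30), with fewer counts, than for Gja1 (0.13). With 2 libraries per group, a gene that did not pass is not shown to be unchanged.

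**Figure D2:**
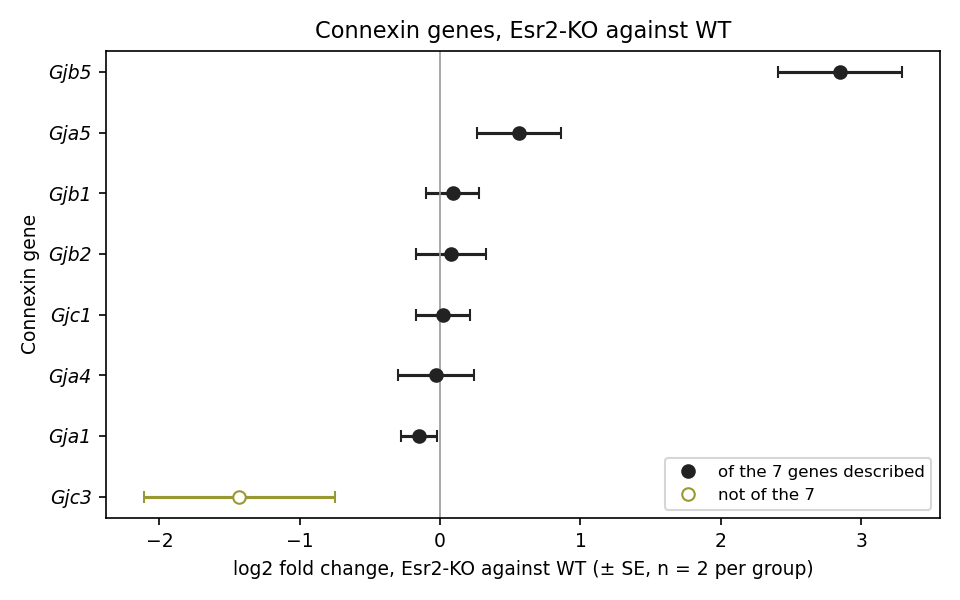
Log2 fold change (Esr2-KO against WT) of 8 connexin genes, with SE bars (n = 2 per group), filled for the 7 genes described and open for Gjc3. Gjb5 lies to the right of the rest, Gjc3 to the left, and Gja1, Gja4, Gjb1, Gjb2 and Gjc1 lie within 0.2 of zero.

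Of the 9 further connexin genes, 5 had at least 1 count and 1, Gjc3, had enough to be tested. Gjc3, a connexin of myelinating glia, was at 0.743 and 1.58 CPM in the WT libraries, against 0.614 and 0.228 CPM in the knockouts (-1.43 ± 0.68, adjusted p = 0.297). Its groups did not overlap, but WT 1 and Esr2-KO 1 lay close together. The size rests on single libraries, with -0.78 without WT 2, -0.91 without Esr2-KO 2 and -2.33 without Esr2-KO 1. Gjd2, the connexin of neurons and islet β cells, had 2, 7, 7 and 1 counts, Gjd3 10, 1, 1 and 6, Gja6 0, 6, 0 and 0 and Gjb6 0, 2, 0 and 0, all too few to be tested. The lens connexin Gja3, and Gja10, Gjd4 and Gje1, had no count in any library, below the floor of 3 counts given above. Of the pannexins, which form channels without docking to a neighbouring cell, Panx1 was at 19.6, 22.6, 21.5 and 19.2 CPM (-0.05 ± 0.15, adjusted p = 0.878). Panx2 had 7, 13, 16 and 0 counts (-0.19 ± 1.22, adjusted p = 0.948) and Panx3 none.

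Proteins that bind, traffic or modify connexins formed a list of 17 tested genes, of which 1 fell and none rose, with a median of 0.15. The one that fell was Prkca, a protein kinase C isoform that can phosphorylate Cx43, at 124 and 113 CPM in the WT libraries, against 74.7 and 58.8 CPM in the knockouts (-0.83 ± 0.15, adjusted p = 0.0425). The list also held the scaffold gene Tjp1 and the adhesion gene Cdh1, which did not pass in edgeR, though Cdh1 did in DESeq2 (adjusted p = 0.019). Its largest change was in Nov, at 380 and 141 CPM in WT against 81.1 and 19.2 CPM in the knockouts (-2.37 ± 0.71). Nov did not pass in edgeR (adjusted p = 0.132) or DESeq2 (0.186), but did in the likelihood ratio test (0.0163). Of the 17 genes, 4 had an unadjusted p under 0.05 in edgeR.

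Divided by length, which is needed to compare one gene with another, Gjb1 was the most abundant of the 7 in both genotypes. In WT it stood at 27.9 ± 0.35 CPM per kilobase of annotated exon (SD, n = 2), followed by Gjb2 (4.11 ± 0.71), Gja1 (3.84 ± 0.281), Gja4 (2.28 ± 0.237), Gjc1 (1.90 ± 0.105), Gjb5 (1.43 ± 0.933) and Gja5 (0.445 ± 0.0211). The library ranges overlapped for Gjb2 and Gja1 and for Gjc1 and Gjb5, so the order within those pairs is not settled by this length. In Esr2-KO, Gjb5 took the second place with 10.3 ± 0.892, behind Gjb1 with 29.8 ± 7.92 and ahead of Gjb2 (4.36 ± 1.06) and Gja1 (3.46 ± 0.172). The places of Gja1, Gjb2, Gja4 and Gjc1 rest on the length used. Against its longest annotated transcript (3889 bases, not 10257 bases of summed exon) Gja1 stood at 10.1 in WT, second to Gjb1, and at 9.14 in Esr2-KO, just below Gjb5. With that length Gjc1 also stood above Gja4, at 2.78 against 2.28 in WT and 2.81 against 2.24 in Esr2-KO.

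Taken as shares of the summed level of the 7 genes, Gjb5 was larger in the knockouts and Gjb1 smaller. The sum was 42.5 and 41.4 CPM per kilobase of annotated exon in the WT libraries, against 45.8 and 59.5 in the knockouts. Gjb5 held 1.81% and 5.04% of it in WT 1 and WT 2, and 21.1% and 18.3% in Esr2-KO 1 and Esr2-KO 2. Gjb1 held 66.3%, 66.9%, 52.7% and 59.4% in the same library order, the first place in every library. By this length, Gjb5 moved from the sixth and the fifth place in WT to the second in both knockouts. By the longest transcript its rank was 6 in WT and 2 in Esr2-KO, and shares were not worked out with that length. A share falls when another rises, and the CPM of Gjb1 given above did not differ detectably.

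**Figure D3:**
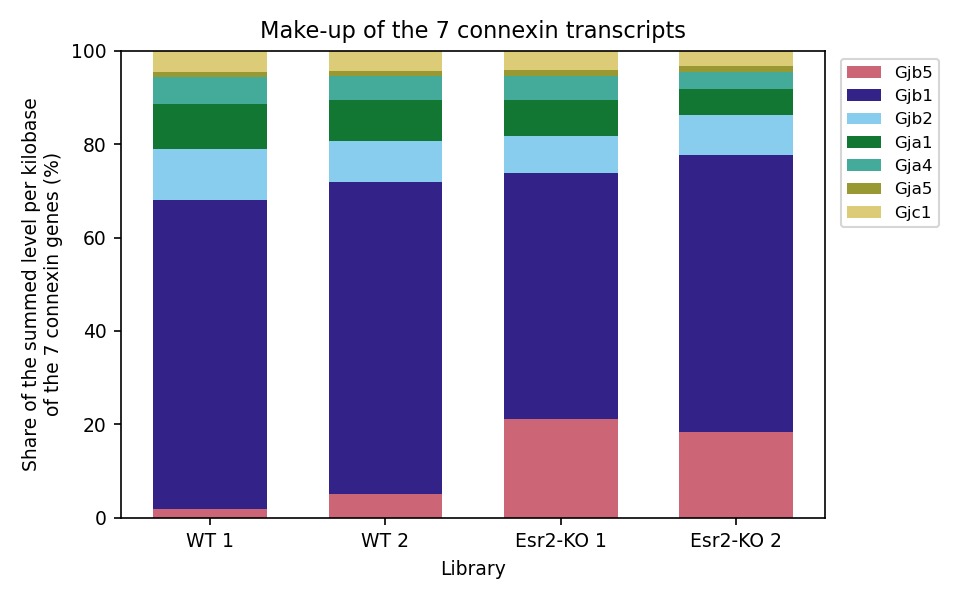
Share of each of the 7 connexin genes in their summed level per kilobase of annotated exon, in percent, for each of the 4 libraries (bars stacked to 100). The Gjb5 segment reaches 1.81% and 5.04% in WT and 21.1% and 18.3% in Esr2-KO.

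The transcripts of the 7 genes share no stretch of 50 bases with each other. Over the 21 pairs, the longest open reading frames were identical at 61.3% (Gja1 and Gja5) to 68.7% (Gjb1 and Gjb2) of aligned bases. Gjb5 was at 63.1% (Gjb1) to 65.8% (Gjc1) with the others, a span too narrow to rank its relatives. No stretch of 50 bases in annotated transcripts of Gjb5, Gjb1, Gjb2 or Gja4 occurs in the transcripts of another gene.

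The genes whose pattern lay nearest to that of Gjb5 over the 4 libraries were B3gnt7, Hoxb13 and Best2. Likeness was the root mean square distance between log2 CPM values centred on each gene's mean, and it was 0.179, 0.219 and 0.226 for these, out of 13493 genes compared. B3gnt7, a glycosyltransferase, was at 76.5, 147, 708 and 799 CPM, and Hoxb13 at 72.8, 153, 616 and 676 CPM in the library order WT 1, WT 2, Esr2-KO 1 and Esr2-KO 2. Best2, an anion channel of goblet cells in colon, was at 6.64, 20.3, 69.8 and 69.0 CPM. In each of these, as in Gjb5, WT 1 was the lowest library, WT 2 came next and the Esr2-KO libraries were close together. For the other 6 members the nearest genes lay at distances from 0.004 to 0.024. Values were not scaled to how far a gene varied, and Gjb5 varied the most, so these distances cannot be set against those of Gjb5. The nearest genes were Adnp2, Sugp2 and AA543186 for Gjb2, Atrn, Ctcf and Dlg1 for Gjc1, and Vps37a, Ttc3 and Ssbp1 for Gja1. For Gja4 they were Atp6v1a, Fam26e and Zrsr2, for Gjb1 Brsk1, Parvb and Arhgap33, and for Gja5 Ino80dos, Abcc4 and Vit. With 4 libraries in 2 groups, many genes can share such a pattern, and no test was made of it.

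**Figure D4:**
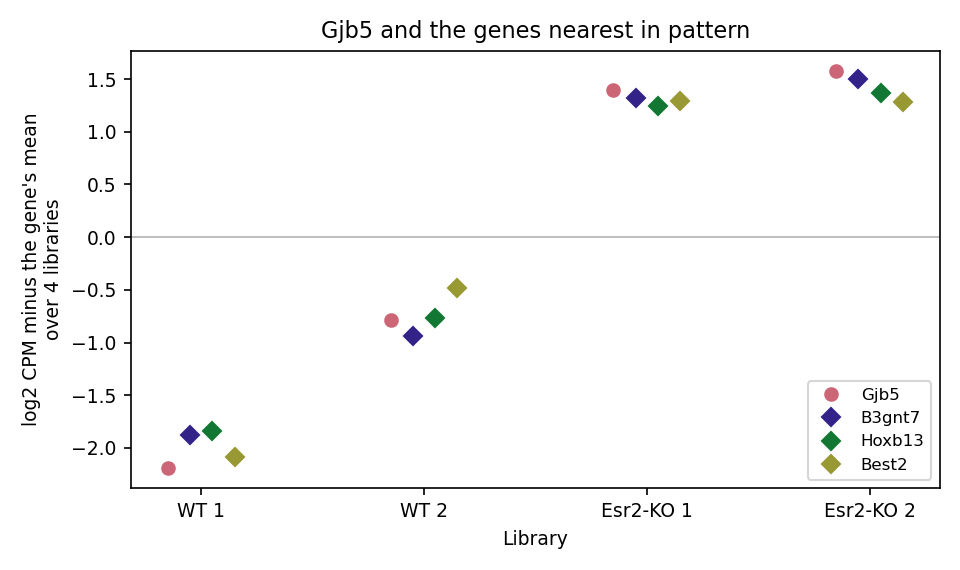
Level of Gjb5 (circles) and of the 3 genes nearest to Gjb5 in pattern (diamonds) in each library, as log2 CPM minus the gene's mean over the 4 libraries. Gjb5, B3gnt7, Hoxb13 and Best2 run from between -2.19 and -1.84 in WT 1 to between 1.28 and 1.58 in Esr2-KO 2.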

How the data were processed

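Colon RNA of 2 WT and 2 Esr2-KO libraries was analysed, from the authors' deposited table of raw counts for each gene symbol. Per the labels' protocols, ribosomal RNA was depleted and a directional kit was used. Reads were aligned with HISAT2 to mm10, per the submitters' processing notes. The sources used here do not state how reads were counted (program, annotation, strand, filters), and further libraries that the design text implies are not analysed here.

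Genes were kept with filterByExpr (minimum count 10, minimum total 15), which left 17169, and scaled by TMM. The test was the quasi-likelihood test of edgeR 4.0.16 under R 4.3.3 (glmQLFit, glmQLFTest, two-sided, no covariate), with Benjamini-Hochberg adjustment over all 17169 genes and a threshold of 0.05. Values after ± on log2 fold changes are standard errors, the fold change divided by the root of F. Positions and exon lengths came from GENCODE M21 (GRCm38, the same build), promoters from RefSeq GRCm38.p6. The fit was tested on simulated counts.

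The members and the lists were chosen with earlier results of these data known. Some connexin and partner genes are not reported here. Named were the members, further connexins and pannexins with a count, members of each list past the threshold (up to 4) or otherwise the 2 with the smallest p, and the 3 genes nearest in pattern to each member. Connexins without a count, Cela2a, Ptf1a, Klk1, Kit, Etv1, Krt5, Krt14, Krt15, Sbsn, Trp63, Krt6a, Sprr3, Tjp1, Cdh1 and Nov were named beyond that rule, after values were seen. Alternatives covered other scalings (library totals, the size factors of DESeq2, upper quartiles), other filters (none, or 1 CPM in at least 2 libraries), other tests (likelihood ratio, limma-voom 3.58.1, DESeq2 1.42.0), the replicate block, each library left out, exocrine pancreas genes left out, and another length.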

Additional observations from a re-analysis of the deposited data

How the results depend on the processing

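Gjb5 was higher and past the threshold under all 14 alternatives (log2 fold change 2.30 to 3.76). The number of genes past the threshold, 462, was 695 with library totals, 1916 without a filter, 1693 with DESeq2, 1341 with the likelihood ratio test and 1245 at an adjusted p of 0.1, and from 165 (without WT 1) to 1804 (without Esr2-KO 1) with 1 library left out. Directions near zero turned. Gja4 ran from -0.11 to 0.08 with 1 library left out. Gjb1 was -0.10 with library totals and ran from -0.20 to 0.34. Gjb2 was -0.11 with library totals and ran from -0.18 to 0.32. Gjc1 was -0.15 with library totals, -0.0026 with upper-quartile factors, and ran from -0.02 to 0.08. Library totals moved the median of all genes by -0.16. The cause of the other changes was not tested. With the replicate number as a block 490 genes passed, 343 of them among the 462, and no call among the connexins given here changed. Same-numbered libraries did not deviate together (correlation of deviations -0.0641), so the numbers were not taken as pairs. Depth limits Gjd2, Gjd3, Gja6 and Gjb6, which had too few counts to be tested.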
